A study of Mus musculus with 8 samples.

Results

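Expression of the core Notch pathway was described in 4T1.13 mammary tumours with and without suppression of miR-21. The 10 genes comprised the 4 receptors Notch1, Notch2, Notch3 and Notch4, the 4 ligands Dll1, Dll4, Jag1 and Jag2, and the transcriptional targets Hes1 and Hey1, and they were taken by gene symbol from the 27179 genes of the count table. All 10 genes passed the filter on low counts that left 14382 genes for testing. The 4T1.13 line is a metastatic mouse mammary carcinoma that grows in BALB/c mice. The VC tumours grew from 4T1.13 cells carrying the miArrest lentiviral vector with a scrambled RNA, and the miR-21-KD tumours grew from 4T1.13 cells carrying the same vector with an RNA, driven by the H1 promoter, that sequesters mature miR-21. Both lines therefore carried the mCherry reporter and hygromycin resistance, and each line was a pool of expanded clones rather than an unselected population. Female BALB/c mice received 100000 cells in the mammary fat pad, and tumours were collected, according to the labels, at day 14, when the miR-21-KD tumours began to regress. The labels give no age, but the paper's methods give one, in weeks, for its mice at injection. Total RNA was read from 4 whole tumours per group, so carcinoma cells and host stroma, vessels and leukocytes were measured together. Fewer cells of a type and less RNA per cell cannot be told apart in such samples.

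Notch receptors are cleaved on contact with a Delta-like or Jagged ligand on a neighbouring cell, and the freed intracellular part joins the DNA-binding protein RBPJ and a Mastermind protein to switch on genes of the HES and HEY families. Fringe enzymes add sugars to the receptor that alter which ligand family it answers to. In growing vessels Dll4 is carried by endothelial tip cells and restrains sprouting, Jag1 counters it, Notch4 is largely an endothelial receptor and Notch3 is known from pericytes and vascular smooth muscle.

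The mature form of the microRNA that was sequestered is shown first because it is what distinguishes the groups. It is given from RefSeq (GRCm38.p6, chr11:86584120-86584141, minus strand), 5′ to 3′, with its seed, bases 2 to 8, in capitals.

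mmu-miR-21a-5p: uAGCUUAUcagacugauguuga

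The 7 bases that pair with this seed, ATAAGCT, were looked for on the sense strand of the longest annotated 3′ UTR of each of the 10 genes (GENCODE basic annotation of the same assembly). They were found in Notch2 and Jag1 and in no other of the 10. Both matches are printed below with their neighbouring bases, the 7 bases in capitals, and lie at position 918 of the Notch2 3′ UTR and position 1279 of the Jag1 3′ UTR.

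Notch2: aatgtccaagaaATAAGCTaacttgctcaa

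Jag1: gggagtattctcATAAGCTagttgaatact

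In each the match is followed by an A, which extends it to the 8 bases ATAAGCTA. The 7-base match occurs in 7.136% of 20979 genes with an annotated 3′ UTR and the 8-base match in 2.093% of them. The match is a description of sequence and binding was not measured. The search was chosen after the values of the genes were known.

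Library totals were 12134849 to 13592695 counts in VC tumours and 12550898 to 12783800 in miR-21-KD tumours. The vector acts on mature miR-21, which counts per gene do not measure, and Mir21a, its gene, had no count in any tumour. The carcinoma epithelium markers, led by Krt18 and Krt8, were present in every tumour, with a summed level of 1287 to 2214 CPM (the counts of a gene relative to the total of its library, scaled by the TMM method) in VC and 841 to 1884 in miR-21-KD tumours. Of these 7 markers Krt18 fell and 5 less abundant ones rose. No marker of any list was at 0 in all tumours. Stromal and leukocyte markers differed between the groups. The 8 fibroblast markers, led by Col3a1 and Col1a1, summed to 3136 to 8207 CPM in VC and 10662 to 23605 in miR-21-KD tumours, and 7 of them rose. The 10 pericyte and smooth muscle markers, led by Acta2 and Pdgfrb, summed to 288 to 414 and 479 to 740 CPM, and 7 rose. All 8 macrophage and monocyte markers, led by Mrc1 and C1qa, rose (summed 2711 to 3959 and 5451 to 8554 CPM), as did all 6 adipocyte markers, led by Fabp4 and Cidec (88.9 to 328 and 440 to 1145 CPM). The 12 endothelial markers, led by Pecam1 and Cdh5, overlapped between groups at 531 to 901 and 772 to 1126 CPM, and 2 rose. T cell markers, led by Lck and Cd3g, summed to 41.2 to 153 and 135 to 276 CPM with 6 of 8 higher. Dendritic cell markers, led by Itgax and Ccr7, summed to 54.8 to 175 and 182 to 342 CPM with 2 of 6 higher, and basal epithelium markers, led by Krt5 and Krt14, to 12.3 to 61.1 and 37.9 to 299 CPM with 3 of 5 higher. No tested neutrophil marker (S100a9 and Csf3r leading, 274 to 780 and 366 to 646 CPM) or B cell marker (Cd79b leading) was called in either direction. With the replicate number, which tumours of both groups share, as a block in the fit, the higher counts became 2 of 5 tested neutrophil markers (Csf3r and Cxcr2), 8 of 8 T cell, 4 of 6 dendritic cell, 4 of 5 basal epithelium, 8 of 10 pericyte and smooth muscle and 4 of 12 endothelial markers. In that fit 1 endothelial and 2 carcinoma epithelium markers were lower, and the counts of the other lists did not change. VC replicate 4 and miR-21-KD replicate 4 stood apart by their B cell markers, at 147.4 and 74.5 summed CPM against 1.99 to 13.3 in the other 6 tumours, and the values without them are given where they change a result.

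Of the 10 Notch genes, Jag1, Jag2 and Hey1 rose and Dll4 fell in miR-21-KD tumours. The mean level of Hey1 was 3.62-fold that of VC tumours, that of Jag1 1.78-fold and that of Jag2 1.52-fold, and Dll4 was 1.69-fold lower. No receptor passed the threshold. The calls of Jag1 and Hey1 held in every fit at this threshold. That of Jag2 was lost with any of 7 of the 8 tumours left out, and with the replicate block that of Dll4 was lost (adjusted p = 0.0860) while Notch3 passed as higher (0.0234). The 4 calls without the block, at an adjusted p under 0.05 in edgeR's quasi-likelihood test, are 40% of the genes, against 39.1% of all 14382 tested genes, of which 19.6% were higher and 19.5% lower. The share called was thus near that of any gene in these tumours. The values of the groups did not overlap for 3 of the 10 genes, Jag1, Jag2 and Hey1, against 35.2% of all tested genes. The 10 genes had a median log2 fold change of 0.35, and all tested genes one of -0.01. The plot of CPM by tumour shows the values, and the plot of differences gives each gene with its error.

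**Figure D1:**
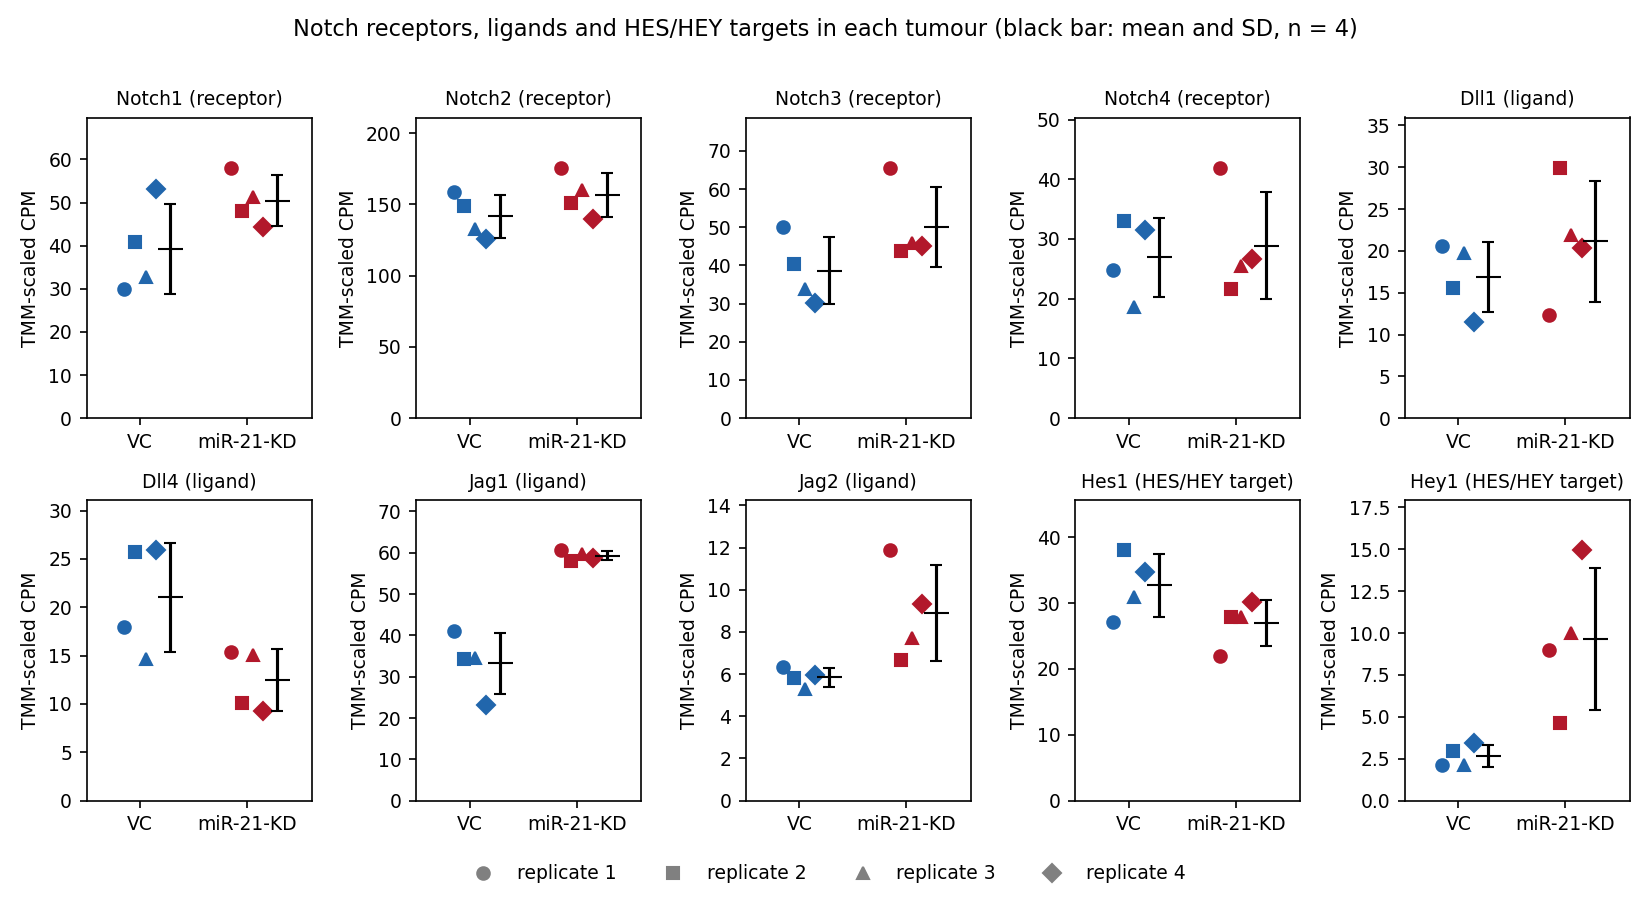
TMM-scaled CPM of each gene in the 4 VC (blue) and 4 miR-21-KD (red) tumours, with a panel and y axis per gene, marker shape for the replicate number and a black bar for mean and SD. Jag1, Jag2 and Hey1 separate the groups, and VC replicate 3 of Dll4 (14.7) lies among the miR-21-KD values (9.24 to 15.4).

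Notch1 (Entrez 18128; mm10 chromosome 2, 26457902 to 26503822) is the receptor best known from T cell development and endothelium. It was measured at 30.01, 40.9, 32.7 and 53.2 CPM in VC replicates 1 to 4 and at 58.1, 48.0, 51.4 and 44.4 CPM in miR-21-KD replicates 1 to 4. VC replicate 4 exceeded 3 of the 4 miR-21-KD tumours, so the groups overlapped. The means of 39.2 ± 10.4 and 50.5 ± 5.84 CPM (SD, n = 4) differed by 0.36 ± 0.18 (log2, SE), which did not pass (edgeR adjusted p = 0.136). Without VC replicate 4 the log2 fold change was 0.54 with an adjusted p of 0.0223, so the edgeR result depended on that tumour. With all tumours kept, Notch1 passed under limma-voom with quality weights (adjusted p = 0.0253), so it depended on the method as well.

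Notch2 (Entrez 18129; chromosome 3, 98013538 to 98150367) was the most abundant receptor. Its levels were 158.9, 149.1, 132.6 and 125.6 CPM in VC and 175.7, 150.8, 160.4 and 139.6 CPM in miR-21-KD tumours. The groups overlapped over most of their range, at 141.6 ± 15.2 and 156.6 ± 15.3 CPM. The log2 fold change was 0.15 ± 0.11 (adjusted p = 0.296).

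Notch3 (Entrez 18131; chromosome 17, 32120820 to 32166896) was read at 50.1, 40.3, 33.7 and 30.2 CPM in VC and at 65.6, 43.7, 45.8 and 45.2 CPM in miR-21-KD tumours. Replicate 1 was the highest tumour of both groups, and VC replicate 1 exceeded 3 miR-21-KD tumours. The log2 fold change of 0.38 ± 0.19 did not pass (adjusted p = 0.141). Same-numbered tumours of the 2 groups deviated together. With the replicate number as a block in the fit the log2 fold change was again 0.38 and the adjusted p was 0.0234, and Notch3 was higher in miR-21-KD in 4 of 4 numbers. Without VC replicate 1 the adjusted p was 0.0498. The pericyte and smooth muscle markers moved the same way. Per 100 CPM of those summed markers Notch3 was at 8.01 to 13.9 CPM in VC and 8.32 to 9.13 CPM in miR-21-KD tumours, ranges that overlapped, and the part of these markers in the result was not tested.

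Notch4 (Entrez 18132; chromosome 17, 34564286 to 34588543) had 24.8, 33.0, 18.6 and 31.5 CPM in VC and 42.0, 21.6, 25.4 and 26.6 CPM in miR-21-KD tumours. The highest and the second lowest tumours were both of the miR-21-KD group, which thus spanned nearly the whole VC range. The log2 fold change was 0.10 ± 0.24 (adjusted p = 0.766), and its sign turned without VC replicate 3 (-0.05) or without miR-21-KD replicate 1 (-0.13).

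Levels were compared between receptors as CPM per kilobase of exon, since longer transcripts give more reads. On this scale Notch2 made up 45.8% to 54.7% of the summed receptor level in VC and 44.7% to 51.0% in miR-21-KD tumours. Notch3 followed with 14.4% to 22.1% and 18.9% to 21.9%, Notch1 with 11.2% to 21.5% and 16.4% to 18.0%, and Notch4 with 12.2% to 18.3% and 11.7% to 17.0%. The make-up of the receptors thus overlapped between the groups for each of the 4 genes. The summed receptor level was 23.1 to 28.6 CPM per kilobase in VC and 27.6 to 37.4 in miR-21-KD tumours, and these ranges also overlapped.

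Jag1 (Entrez 16449; chromosome 2, 137081451 to 137116520), the Jagged ligand that carries the seed match printed above, had 41.0, 34.3, 34.5 and 23.1 CPM in VC and 60.6, 58.0, 59.7 and 58.8 CPM in miR-21-KD tumours. Every miR-21-KD tumour lay above every VC tumour, and the miR-21-KD values were within a few CPM of each other. The mean rose from 33.2 ± 7.42 to 59.3 ± 1.14 CPM, a log2 fold change of 0.83 ± 0.15 (edgeR adjusted p = 0.00758). Jag1 was called with each tumour left out in turn, with log2 fold changes of 0.69 to 0.95 and adjusted p-values up to 0.0280. All macrophage and monocyte markers and 3 of 5 basal epithelium markers also rose. Per 100 CPM of the summed macrophage and monocyte markers Jag1 was at 0.638 to 1.27 CPM in VC and 0.698 to 1.06 CPM in miR-21-KD tumours, and per 100 CPM of the endothelial markers at 3.02 to 6.50 and 5.39 to 7.52 CPM. Per 100 CPM of the basal epithelium markers it was at 67.1 to 194 and 20.2 to 153 CPM. All 3 pairs of ranges overlapped, and the part of these cells in the rise was not tested. Notch2, the other gene with the seed match, was not called. Over all tested genes with an annotated 3′ UTR, 22.04% of the 1021 with the 7-base match were higher and 19.1% lower, and 20.24% and 20.11% of the 12196 without it.

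Jag2 (Entrez 16450; chromosome 12, 112907803 to 112929812), the other Jagged ligand, was scarcer, with 86, 73, 67 and 73 reads in VC and 147, 85, 95 and 119 reads in miR-21-KD tumours. This corresponds to 6.34, 5.82, 5.28 and 5.97 CPM against 11.9, 6.68, 7.71 and 9.31 CPM. The groups did not overlap, but miR-21-KD replicate 2 lay close to VC replicate 1. The log2 fold change was 0.60 ± 0.20 (adjusted p = 0.0435). The call was close to the threshold. It was lost with any of 7 of the 8 tumours left out, all except miR-21-KD replicate 2, with adjusted p-values of 0.0584 to 0.112, and also without a filter on low counts (0.0652) and with limma-voom (0.0514).

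Dll4 (Entrez 54485; chromosome 2, 119325784 to 119335666), the Delta-like ligand of endothelial tip cells, was at 17.9, 25.7, 14.7 and 25.9 CPM in VC and at 15.4, 10.1, 15.1 and 9.24 CPM in miR-21-KD tumours. VC replicate 3 was below miR-21-KD replicates 1 and 3, so the groups overlapped. The mean fell from 21.0 ± 5.65 to 12.5 ± 3.22 CPM, a log2 fold change of -0.76 ± 0.25 (adjusted p = 0.0396). With the replicate block the log2 fold change was -0.75 and the call was lost (adjusted p = 0.0860). Dll4 was lower in 3 of 4 numbers. It was also lost without VC replicate 2 (0.101), VC replicate 4 (0.0782), miR-21-KD replicate 2 (0.0697), 3 (0.0523) or 4 (0.0988). Of the 12 endothelial markers 2 rose and none fell at the threshold, but they did not move together. Cldn5, a tight junction protein, averaged 14.1 ± 4.94 CPM in VC tumours against 8.74 ± 3.11 CPM with miR-21-KD (log2 fold change -0.69, adjusted p = 0.135), and Emcn, an endothelial sialomucin, passed as lower with the replicate block (-0.35, adjusted p = 0.0256). In the fit with the block Tek, Vwf, Ptprb and Tie1 passed as higher (log2 fold changes of 1.17, 1.99, 0.81 and 0.25). These markers were picked after their values were seen. Per 100 CPM of the 12 summed endothelial markers Dll4 was at 1.99, 3.43, 2.76 and 3.39 CPM in VC and at 1.36, 1.31, 1.79 and 1.12 CPM in miR-21-KD tumours. On this scale every miR-21-KD tumour was below every VC tumour, as the plot relative to endothelial markers shows, and the same held without Pecam1, the most abundant marker (3.47 to 5.66 against 1.97 to 3.37 CPM). The sum includes Tek and Vwf, the markers called higher, and ratios to single markers need not follow it. The ratio of Dll4 to Cldn5 overlapped between the groups, at 1.35 to 1.75 in VC and 0.849 to 2.39 in miR-21-KD tumours. Cldn5 was not the only such marker, as the ratio of Dll4 to Cdh5 overlapped too. The part of endothelial cells in the fall of Dll4 was not tested. Notch1 and Notch4 on the same scale overlapped, at 3.33 to 6.96 against 5.16 to 6.22 CPM and at 2.75 to 4.41 against 2.80 to 3.73 CPM.

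**Figure D2:**
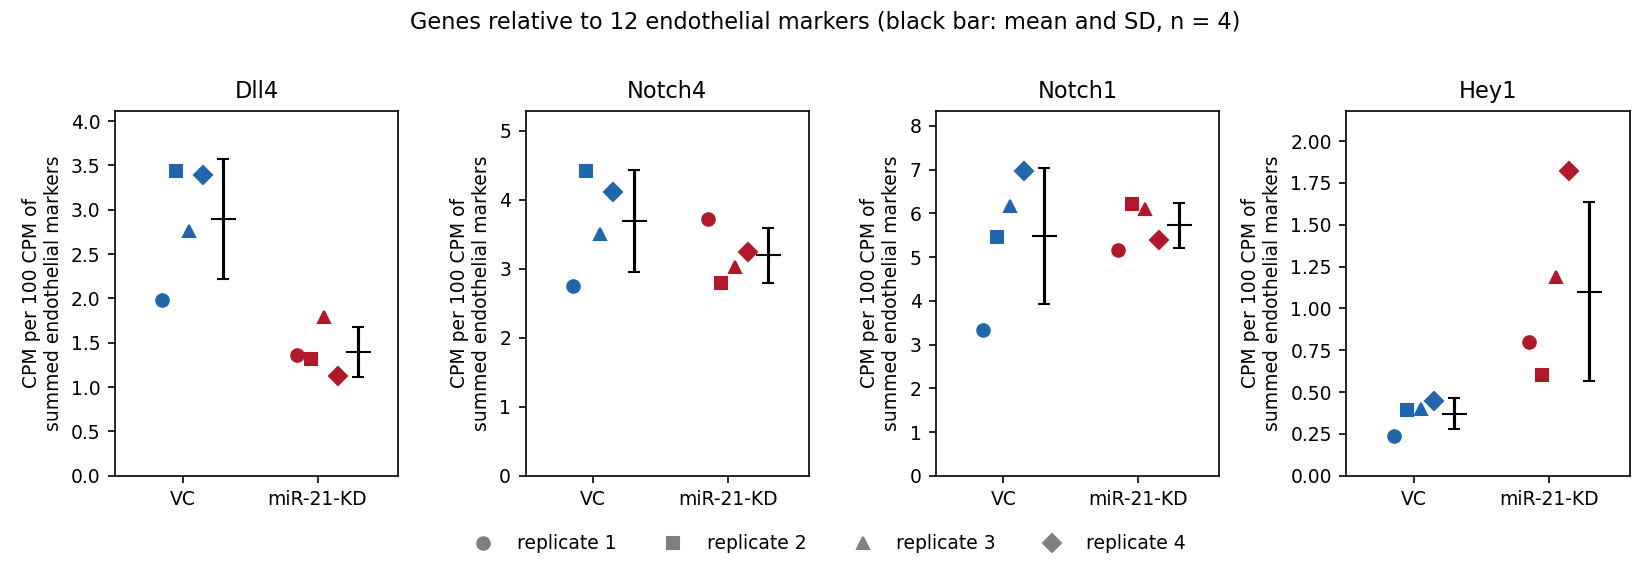
CPM of Dll4, Notch4, Notch1 and Hey1 per 100 CPM of 12 summed endothelial markers (y axis) in VC (blue) and miR-21-KD (red) tumours, with marker shape for the replicate number and a black bar for mean and SD. Dll4 is lower in all 4 miR-21-KD tumours (1.12 to 1.79) than in VC tumours (1.99 to 3.43), Hey1 is higher in all 4, and Notch4 and Notch1 overlap.

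Dll1 (Entrez 13388; chromosome 17, 15367354 to 15376932), the other Delta-like ligand, was at 20.6, 15.6, 19.7 and 11.53 CPM in VC and 12.3, 29.9, 21.9 and 20.4 CPM in miR-21-KD tumours. The miR-21-KD group held the highest tumour and a tumour near the lowest. The log2 fold change was 0.33 ± 0.28 (adjusted p = 0.371).

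The balance among ligands was described per kilobase of exon. Jag1 formed 26.7% to 38.3% of the summed ligand level in VC and 45.5% to 52.3% in miR-21-KD tumours, and Dll4 formed 23.6% to 44.8% and 11.9% to 19.8%. Neither pair of ranges overlapped. The ratio of Jag1 to Dll4 was 1.53, 0.892, 1.57 and 0.596 in VC and 2.64, 3.82, 2.64 and 4.25 in miR-21-KD tumours, so Jag1 exceeded Dll4 in every miR-21-KD tumour and in 2 of the 4 VC tumours. Dll1 and Jag2 held overlapping shares, at 20.9% to 33.1% against 16.6% to 36.8% and at 6.18% to 7.58% against 5.76% to 11.3%. The summed ligand level was 15.4 to 19.1 CPM per kilobase in VC and 20.4 to 22.7 in miR-21-KD tumours, without overlap. These sums and ratios use the genes already tested above and carry no test of their own.

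**Figure D3:**
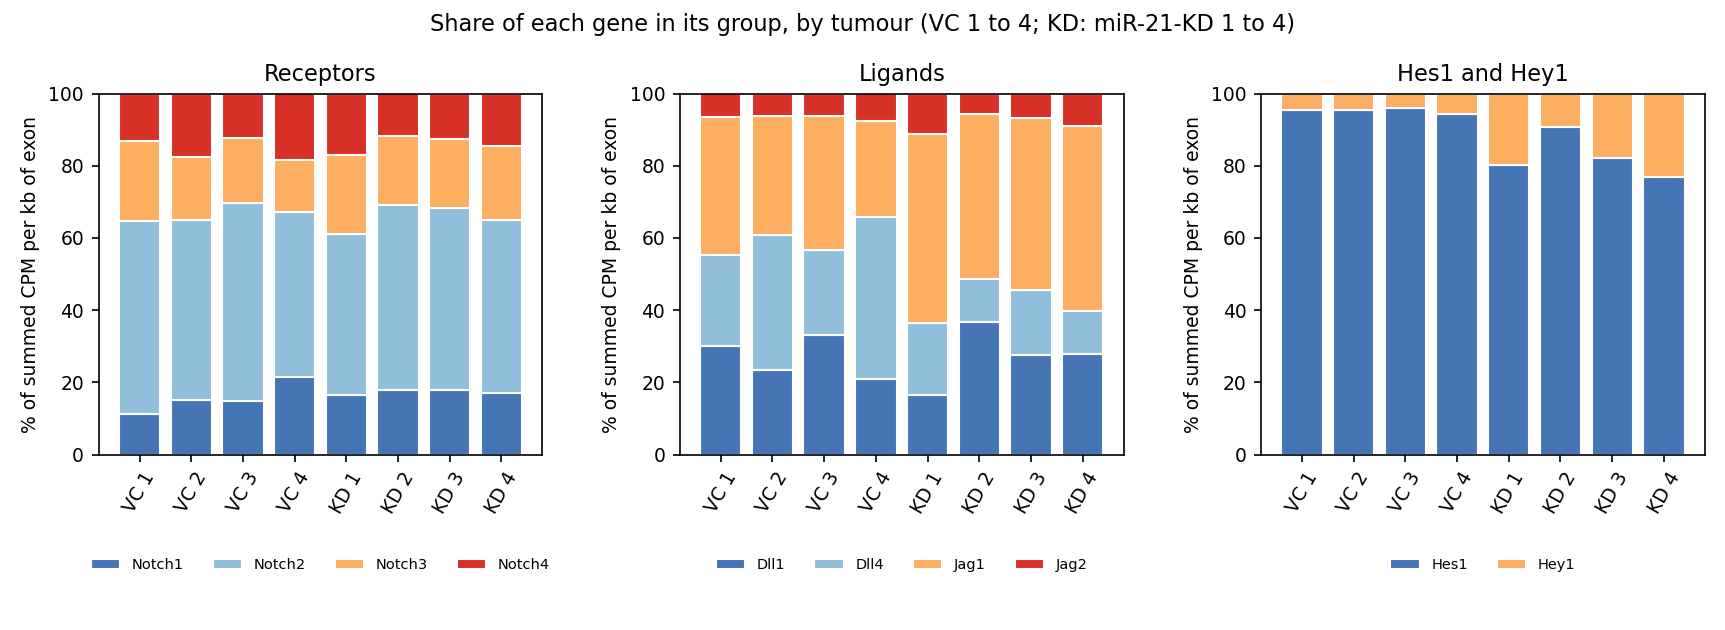
Stacked bars of the percentage that each gene contributes to the summed CPM per kilobase of exon of the receptors, the ligands, and Hes1 with Hey1, with a bar per tumour (VC 1 to 4 and KD, miR-21-KD, 1 to 4). The receptor shares overlap between the groups, while Jag1 (45.5% to 52.3%) and Hey1 (9.17% to 23.1%) take larger shares in every miR-21-KD tumour.

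Hes1 (Entrez 15205; chromosome 16, 30065357 to 30067796), a basic helix-loop-helix repressor and the classical Notch target, had 27.1, 38.1, 30.9 and 34.7 CPM in VC and 21.9, 27.8, 27.9 and 30.2 CPM in miR-21-KD tumours. It was lower in miR-21-KD in 4 of 4 replicate numbers, but VC replicate 1 lay within the miR-21-KD range. The means were 32.7 ± 4.72 and 27.0 ± 3.55 CPM, and the log2 fold change of -0.28 ± 0.14 did not pass (adjusted p = 0.140, and 0.0514 with the replicate block).

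Hey1 (Entrez 15213; chromosome 3, 8663359 to 8667038), a related repressor known from endothelium and other Notch-responsive cells, went the other way. It had 29, 37, 27 and 42 reads in VC and 111, 59, 123 and 191 reads in miR-21-KD tumours, or 2.14, 2.95, 2.13 and 3.43 CPM against 8.97, 4.64, 9.98 and 14.95 CPM. The lowest miR-21-KD tumour, replicate 2, was above the highest VC tumour. The mean rose from 2.66 ± 0.642 to 9.64 ± 4.23 CPM, a log2 fold change of 1.85 ± 0.35 (edgeR adjusted p = 0.00823), and the call held with each tumour left out (log2 fold changes of 1.56 to 2.08, adjusted p up to 0.0309). Adipocyte, fibroblast, and pericyte and smooth muscle markers were also higher in these tumours. Per 100 CPM of the adipocyte markers Hey1 was at 0.652 to 3.32 CPM in VC and 1.05 to 1.58 CPM in miR-21-KD tumours, and per 100 CPM of the fibroblast markers at 0.0261 to 0.0941 and 0.0380 to 0.108 CPM. Relative to 100 CPM of the pericyte and smooth muscle markers it was at 0.517 to 1.02 and 0.969 to 2.75 CPM, and all 3 pairs of ranges overlapped. Per 100 CPM of the endothelial markers it was at 0.237 to 0.449 and 0.601 to 1.82 CPM, without overlap. The part of these cell types in the rise was not tested.

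Per kilobase of exon, Hes1 exceeded Hey1 16.7 to 24.0 times in VC and 3.34 to 9.90 times in miR-21-KD tumours. Hey1 thereby formed 4.01% to 5.66% of the level of the pair in VC and 9.17% to 23.1% in miR-21-KD tumours, whereas the sum of the pair overlapped, at 19.4 to 27.1 and 18.6 to 26.8 CPM per kilobase.

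**Figure D4:**
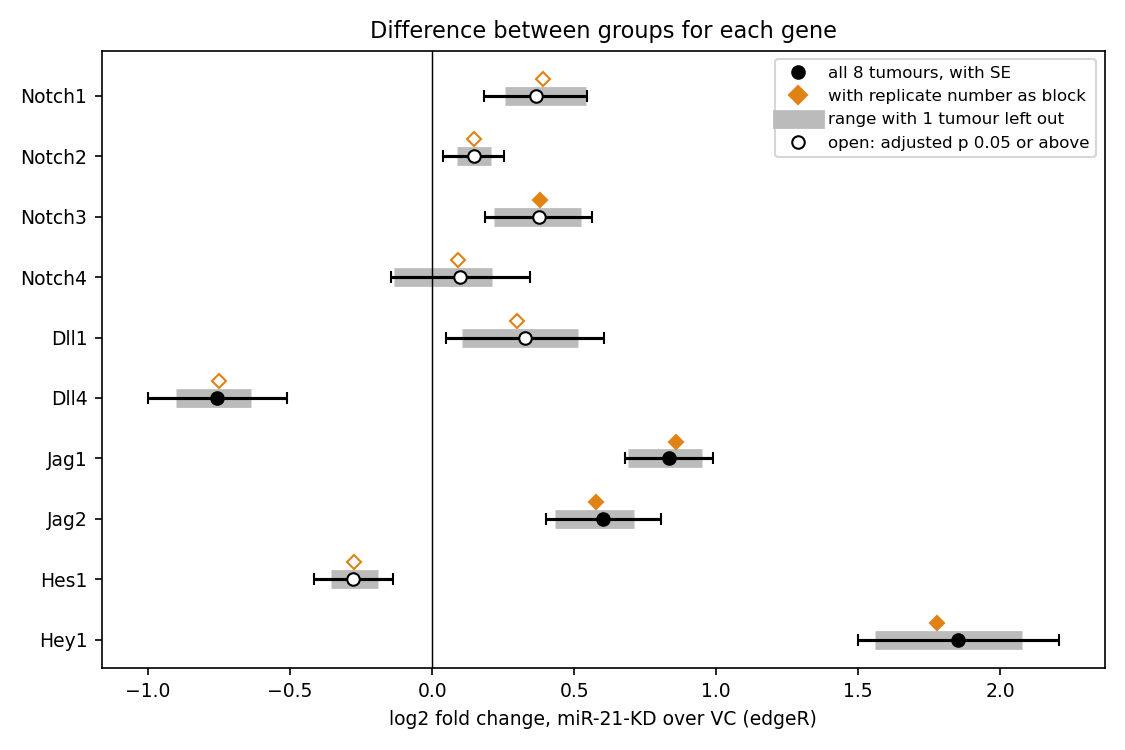
Log2 fold change of miR-21-KD over VC (x axis) for each gene (y axis) from the edgeR fit, with SE as black bars, the range with each tumour left out in grey and the fit with the replicate number as a block in orange, filled where the adjusted p was under 0.05. Jag1 (0.83), Jag2 (0.60) and Hey1 (1.85) are filled in both fits, Dll4 (-0.76) only without the block and Notch3 (0.38) only with it.

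Over all 10 genes the order of mean levels per kilobase of exon in VC tumours was Hes1 (22.3 CPM per kilobase), Notch2 (13.5), Jag1 (5.92), Dll4 (5.62), Notch3 (4.81), Dll1 (4.70), Notch1 (4.13), Notch4 (4.09), Jag2 (1.15) and Hey1 (1.10). Neighbours from Jag1 to Notch4, and Jag2 with Hey1, had overlapping ranges over tumours, while Hes1, Notch2 and the step from Notch4 to Jag2 were set apart. In miR-21-KD tumours Hes1 (18.4) and Notch2 (14.9) overlapped, Jag1 (10.6) stood alone in the third place, and Dll4 (3.32) came after Hey1 (3.98) and before Jag2 (1.74). From Notch3 (6.25) to Dll4 each neighbour overlapped the next. The tumour-to-tumour pattern of the most counted receptor, ligand and target was compared with all other tested genes as Pearson's r of log2 CPM over 8 tumours after subtraction of group means. Notch2 was followed by Flt1 (0.979), Iqgap1 (0.977) and Atxn3 (0.976), Jag1 by Ank3 (0.989), Msl3 (0.982) and P3h2 (0.974), and Hes1 by Trib2 (0.984), Skp1 (0.982) and Tmie (0.971). These are the highest of many correlations over few points that share library and depth, and are a description.

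A list of 72 other genes of the pathway places these values beside its modifiers, processing enzymes and nuclear partners. Of the 63 with enough counts, 12 rose and 15 fell, or 19.05% and 23.81% against 19.6% and 19.5% of all tested genes, and their median log2 fold change was -0.07. The ligands Dll3, Dlk1 and Dner, the targets Hes2, Hes3, Hes5, Hes7 and Hey2, and Ptcra had too few counts to be tested. With the replicate block 16 rose and 19 fell, including the 27 called without it, or 55.6% together against 45.1% of all tested genes (23% higher and 22.1% lower). The 27 calls included 15, of which 6 were higher and 9 lower, that held with each tumour left out in turn and under the other fits at this threshold, or 23.8% of the 63 against 17.3% of all tested genes (7.88% higher and 9.4% lower). No test compared the list, or any role within it, with other genes. The plot of pathway genes by role names the called genes. Genes given below for passing only with the block were picked after their values were seen.

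**Figure D5:**
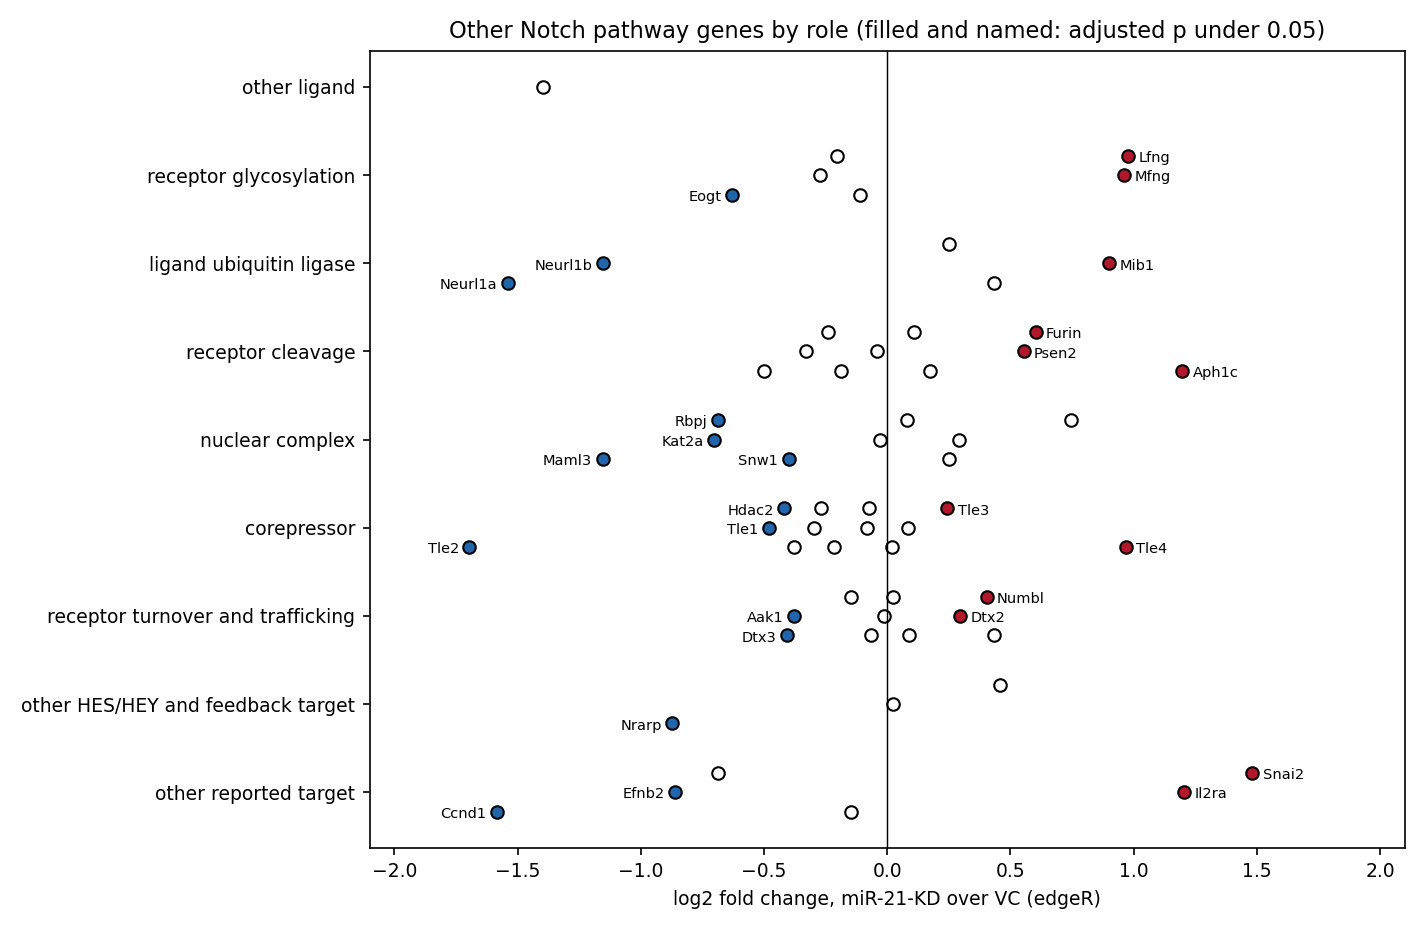
Log2 fold change of miR-21-KD over VC (x axis) for the 63 tested genes among 72 other Notch pathway genes, in rows by role (y axis), filled and named where the edgeR adjusted p was under 0.05 (red higher, blue lower) and open otherwise. The 3 called cleavage genes lie to the right and the 4 called genes of the nuclear complex to the left of 0. Of all tested genes 39.1% were called, and no role was tested against that share.

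Among the receptor-modifying enzymes, 2 of 6 rose and 1 fell. Lfng, the lunatic fringe glycosyltransferase, was at 39.5, 40.0, 41.1 and 60.7 CPM in VC and 98.3, 65.6, 84.5 and 108 CPM in miR-21-KD tumours. The groups did not overlap although VC replicate 4 came close to miR-21-KD replicate 2, and the log2 fold change was 0.98 ± 0.19 (edgeR adjusted p = 0.00899). The related manic fringe, Mfng, was the other gene that rose, from 10.9 ± 4.195 to 21.2 ± 6.36 CPM (log2 fold change 0.96, adjusted p = 0.0351), but the call was lost with any of 6 tumours left out (adjusted p up to 0.0946); it is named here after its value was seen. Eogt, which adds GlcNAc to extracellular EGF repeats, fell from 33.7 ± 3.04 to 21.8 ± 2.38 CPM (log2 fold change -0.63, adjusted p = 0.00717).

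Of 5 ubiquitin ligases that act on ligands, Mib1, which drives ligand endocytosis in the sending cell, rose from 8.23 ± 1.48 to 15.4 ± 2.12 CPM (log2 fold change 0.90, adjusted p = 0.00822). Neurl1a, a Neuralized homologue, fell from 15.7 ± 4.23 to 5.38 ± 1.42 CPM (log2 fold change -1.54, adjusted p = 0.00633), and 1 other ligase of the list fell. Of 10 genes of receptor cleavage, 3 rose and none fell, beside 19.6% higher and 19.5% lower among all tested genes. Furin, the convertase that makes the first cut during receptor maturation, rose from 240.9 ± 35.2 to 365.7 ± 27.0 CPM (log2 fold change 0.60, adjusted p = 0.00922). The remaining called cleavage genes, Psen2 and Aph1c of the gamma-secretase complex, each lost the call with any of 6 tumours left out, and are named here after their values were seen.

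In the nuclear complex none of 9 genes rose and 4 fell, against shares of 19.6% and 19.5% over all tested genes. Maml3, a Mastermind coactivator, fell from 32.9 ± 5.48 to 14.8 ± 3.47 CPM (log2 fold change -1.16, adjusted p = 0.0063). Rbpj, the DNA-binding protein shared by all 4 receptors and named here after its value was seen, had 207.7, 240.5, 234.1 and 185.6 CPM in VC and 116.6, 149.5, 144.7 and 128.7 CPM in miR-21-KD tumours. Every miR-21-KD tumour was below every VC tumour, with a log2 fold change of -0.69 ± 0.12 (adjusted p = 0.00664). With the replicate block 3 further genes of the complex passed and were higher, the coactivators Ep300 (log2 fold change 0.29, adjusted p = 0.0224), Maml2 (0.74, 0.0279) and Crebbp (0.26, 0.0483).

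Corepressors changed in both directions, with 2 of 13 higher and 3 lower. Tle2 and Tle4 are Groucho-type corepressors that HES proteins recruit. Tle2 fell from 29.2 ± 11.01 to 9.003 ± 0.676 CPM (log2 fold change -1.70, adjusted p = 0.00605), while Tle4 rose from 14.2 ± 3.04 to 27.7 ± 7.08 CPM (0.97, adjusted p = 0.0139). With the replicate block Ncor1 also passed as lower (log2 fold change -0.29, adjusted p = 0.0194). Of 10 turnover and trafficking genes, 2 rose and 2 fell. Numbl, a Numb-like adaptor, rose from 17.1 ± 1.52 to 22.6 ± 2.53 CPM (0.40, adjusted p = 0.0291), and Dtx3, a Deltex family ligase, fell from 122.3 ± 18.1 to 92.3 ± 6.46 CPM (-0.41, adjusted p = 0.0228). The call was lost with any of 6 tumours left out for Numbl (adjusted p up to 0.0865) and any of 4 for Dtx3 (up to 0.0639).

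Of 3 other HES, HEY and feedback targets tested, 1 fell. Nrarp, a Notch-induced inhibitor of the nuclear complex, had 24.8, 28.1, 25.1 and 34.6 CPM in VC and 17.1, 15.9, 15.9 and 12.6 CPM in miR-21-KD tumours. It fell without overlap between groups, by 0.87 on the log2 scale (SE 0.15, adjusted p = 0.00658), in the tumours in which Hey1 rose. Heyl was at 3.59 ± 0.606 and 3.65 ± 0.764 CPM and was not called, and Hes6 (log2 fold change 0.46, adjusted p = 0.0574) passed only with the replicate block (adjusted p = 0.0412); both were named after their values were seen. Of 6 other reported targets 2 rose and 2 fell. Efnb2, an arterial ephrin ligand, fell from 59.4 ± 6.13 to 32.6 ± 8.90 CPM (log2 fold change -0.86, adjusted p = 0.0105). Il2ra, the interleukin-2 receptor alpha chain of activated and regulatory T cells, rose from 19.6 ± 7.52 to 45.3 ± 9.32 CPM (1.21, adjusted p = 0.0145), beside T cell markers of which 6 of 8 rose, and their part in it was not tested. With the replicate block Sox9 also passed as lower (-0.76, adjusted p = 0.0265). The non-classical ligand Dlk2 was low, at 1.54 ± 0.365 and 0.577 ± 0.349 CPM, and just missed the threshold (-1.40, adjusted p = 0.0504, and 0.0268 with the block).

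Promoter windows from RefSeq (250 bases before to 50 after an annotated start, GRCm38.p6) were given for 8 of the 10 genes, not for Hes1 and Hey1. The annotated start is not always that of the gene coordinates above. For Jag2, and for the Dll1 window at 15375774 to 15376073, the 5′ end of the gene lies outside the window. The RBPJ core TGGGAA and the E-box CACGTG, on either strand, were in none of the 9 windows of these genes (Dll1 had 2), and the N-box CACNAG was in 5 of 9. These letters occur in 25.561%, 7.15% and 42.48% of 32851 windows of the same length. A match is a description of sequence, and no match says only that the letters are not in this window.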

How the data were processed

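RNA sequencing was analysed for 8 whole tumours, 4 VC and 4 miR-21-KD. The deposited table holds unnormalized read counts, which the authors made for each Entrez gene. The submitters' processing notes name Subread, featureCounts, edgeR, limma and mm10, without versions, and the strand setting is not given in the sources used here. Symbols were matched for 25275 of 27179 identifiers. Genes were filtered with filterByExpr (minimum count 10, total 15), which kept 14382 genes and 99.852% of counts, scaled by TMM and tested with the robust quasi-likelihood test of edgeR 4.0.16 in R 4.3.3, two-sided, with Benjamini-Hochberg adjustment over all tested genes and a threshold of 0.05. The test was checked on simulated counts with known changes. Alternatives used DESeq2 1.42.0, limma 3.58.1 (voom), other scalings and filters, a stricter threshold, the replicate block and each tumour left out. Exonic length was the union of exons of protein-coding GENCODE basic transcripts.

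Labels number tumours 1 to 4 in both groups. After removal of group means, same-numbered tumours correlated at 0.272, 0.421, 0.175 and 0.376, so values with the block are printed where they change a call. Other pairs averaged -0.105. Removing group means largely fixes that value once the same-numbered pairs are given, so it is no separate evidence of pairing. The sources do not say what the number stands for. The labels call the tumours separate samples, and no tumours of a group were alike within sampling noise. Collection is at day 14 in the labels; the paper's text gives another day. The genes and lists were chosen with earlier results of these data known. The text names all 10 genes; per pathway role, the called gene of smallest adjusted p in each direction, or the most abundant if none was called; and the most abundant pair of each marker list. Values of a few listed genes are not reported here.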

Additional observations from a re-analysis of the deposited data

Results flagged for a closer look

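In groups of 4 tumours, a value was singled out when its gap to the nearest other took up more of the group's range than Dixon's 95% limit for 4 values. Of 70 groups examined over the Notch genes, the named pathway genes and the summed marker lists, 4 had such a tumour, and chance alone singles out about 1 group in 20. Notch3 was at 65.63 CPM in miR-21-KD replicate 1, above 43.7 to 45.8 CPM in the other 3, and the log2 fold change of Notch3 without this tumour was 0.22. Lfng was at 60.73 CPM in VC replicate 4, above 39.5 to 41.1 CPM in the other 3, and still below the lowest miR-21-KD tumour. The summed B cell markers were at 147.4 CPM in VC replicate 4 and 74.52 CPM in miR-21-KD replicate 4. The calls of Jag1 and Hey1 held without either of these tumours, and those of Jag2 and Dll4 were lost without either.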

How the results depend on the processing

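With each tumour left out in turn, the number of genes called, 5626 with all tumours, ranged from 2936 to 6840, and at an adjusted p under 0.01 it was 1426. The 4 calls among the 10 genes ranged from 2 to 4 with a tumour left out, the higher ones from 2 to 3 and the lower one from 0 to 1, and 2 remained at an adjusted p under 0.01. The count of lower genes, 1 for Dll4, was 0 with at least 10 counts in every tumour (adjusted p = 0.0514), with limma-voom and quality weights (0.0766), with the replicate block and at an adjusted p under 0.01. Of the other pathway genes, 27 were called, 15 to 33 with a tumour left out, 42 with limma-voom and quality weights and 10 at an adjusted p under 0.01. The 12 higher ranged from 6 to 15 and were 3 at 0.01, and the 15 lower ranged from 9 to 18 and were 24 with quality weights and 7 at 0.01. The cause of these shifts was not tested, apart from the stricter threshold, which by its construction leaves fewer calls. Notch4, whose log2 fold change ranged from -0.13 to 0.21 with a tumour left out, changed sign without VC replicate 3 (-0.05) and without miR-21-KD replicate 1 (-0.13), never passing the threshold. The replicate block changed the calls of Notch3 (adjusted p = 0.0234) and Dll4 (0.0860) and no other among the 10. Notch1 also passed with limma-voom and quality weights (0.0253). Jag1 and Hey1 were called under each setting tried at a threshold of 0.05, DESeq2 included. Under the other scalings the median log2 fold change of all genes lay between -0.04 and 0.03. Within the 250 bases before the start, 4 windows held the N-box and none the other motifs. Hey1 and Jag2, with as few as 27 and 67 reads in a tumour, had the fewest counts of the 10 genes.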

Other observations

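Dtx1, a Deltex ligase of the turnover list that is known from lymphocytes, was not called (log2 fold change -0.01, edgeR adjusted p = 0.994). It was at 5.80 CPM in VC replicate 4 and 3.44 CPM in miR-21-KD replicate 4, the pair of tumours with the most B cell marker RNA, and between 0.0798 and 1.54 CPM in the other 6. The gene was picked out after its values were seen.

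Among the tested pathway genes outside the naming rule, Snai2 and Ccnd1 had the largest log2 fold changes. Snai2, a transcription factor, rose from 2.91 ± 1.07 to 8.15 ± 3.75 CPM (log2 fold change 1.48, edgeR adjusted p = 0.0154). In these tumours 7 of 8 fibroblast and 3 of 5 basal epithelium markers also rose, and their part in the rise of Snai2 was not tested. Ccnd1, cyclin D1, had 1294, 1905, 1877 and 1225 CPM in VC and 183.6, 1082, 470.5 and 367.4 CPM in miR-21-KD tumours. It fell without overlap between groups (log2 fold change -1.58, adjusted p = 0.0309), and the call was lost with any of 4 tumours left out (adjusted p up to 0.0836). The ratio of Lfng to Dll4, computed from CPM, was 1.56 to 2.81 in VC and 5.60 to 11.7 in miR-21-KD tumours, without overlap. Both genes were known to differ when the ratio was formed.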
